A study of Mus musculus with 12 samples.

Results

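Transcripts of 37 genes for glucose uptake, glycolysis, pyruvate handling and glycogen turnover were followed in bulk RNA of mouse heart ventricles. The genes were taken by symbol from the deposited count tables, and all 37 were found among the 14957 genes listed and passed the filter on low counts that left 13910. The 12 libraries came from wild-type C57Bl/6J mice, 4 in each of 3 groups, and ages were not given in the labels. TAC-BacNav mice had transverse aortic constriction, an operation that narrows the aorta and overloads the left ventricle. They were given an AAV9 vector in which the muscle promoter MHCK7 drives BacNav, a bacterial voltage-gated sodium channel, with the fluorescent protein mScarlet. TAC-mScarlet mice had the constriction and the same vector type with mScarlet and no BacNav. Sham-NT mice were operated without constriction and were injected with PBS, so they differ from TAC-mScarlet mice in operation and vector at once, and the effects of these cannot be told apart. TAC-BacNav against TAC-mScarlet asks what the channel changes under constriction, TAC-mScarlet against Sham-NT what constriction with a control vector changes, and TAC-BacNav against Sham-NT what difference from sham hearts is present with the channel.

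Glucose enters the cardiomyocyte through facilitative transporters, is trapped by phosphorylation and is split by glycolysis into pyruvate. Pyruvate either becomes lactate in the cytosol or is carried into mitochondria, where the pyruvate dehydrogenase complex, held in check by its kinases, turns it into acetyl-CoA. The healthy adult heart burns mostly fatty acids, and the fetal and the overloaded heart are known to rely more on glucose. Many steps have a muscle isozyme and a more widely expressed one, and glycogen stores are built and broken down by a separate set of enzymes.

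Library totals were 7.36 to 11.5 M (mega-counts) in TAC-BacNav, 8.28 to 9.81 M in TAC-mScarlet and 5.36 to 7.84 M in Sham-NT libraries. The 37 genes held 1.83 to 2.10% of all counts in TAC-BacNav, 1.70 to 1.91% in TAC-mScarlet and 1.99 to 2.18% in Sham-NT libraries. Levels are given in CPM (counts per mega-count of the library) after TMM scaling, and the least covered gene, Slc2a1, had 77 counts in its shallowest library. Each library is a separate mouse, so the spread within a group is a spread between animals. Errors of fold changes come from a model fitted to all libraries and are not a gene's own spread alone. Summed over 10 ventricular cardiomyocyte markers, libraries held 58499 to 79182 CPM in TAC-BacNav, 49686 to 66139 CPM in TAC-mScarlet and 78069 to 89050 CPM in Sham-NT, whereas the atrial markers Myl4 and Myl7 together gave 2.00 to 8.15 CPM over all libraries, which fits a ventricular label. The atrial marker Sln, 3 adipocyte markers and the skeletal myosin genes Myh1, Myh2 and Myh4 were not analysed here. In bulk tissue such as this, fewer cells of a type and less RNA per cell cannot be told apart. Libraries also differed in immediate early genes within groups: Fos was above 30 CPM in 7 libraries (TAC-BacNav 1 and 2, TAC-mScarlet 1, 2 and 3, Sham-NT 1 and 2) and below it in 5, and some results are also given within these sides.

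In Sham-NT ventricles heart and muscle forms had the highest levels per kilobase of annotated exon. Ldhb averaged 1360.2, Aldoa 1099.5, Eno3 1099 and Pgam2 1087 CPM per kilobase, whereas Slc2a1 reached 4.52 and Pfkp 4.39 CPM per kilobase. Lengths count all annotated exons of a gene, 13401 bases for Pfkp and 4133 for Gapdh but 840 for Pgam2. Protein-coding transcripts can be shorter than that, which lowers the value per kilobase, so the order is uncertain. Gapdh, a step that every glycolysing cell needs, was listed at 44.5 CPM per kilobase of annotated exon in Sham-NT. Of its 100-base transcript windows 53.1% are identical to sequence of 86 other annotated genes, 81 of them pseudogenes, and how reads with several matches were counted is not stated. Windows shared with other genes also made up 67.0% in Pgk1, 39.7% in Pgam1 and 39.5% in Eno1, and 22.2% in Pfkfb2, where Gm29427 and Yod1 overlap its exons, so these counts are uncertain. Counting by strand is not stated, so overlaps on the opposite strand (among others Map3k15 at Pdha1, Pitrm1 at Pfkp and 4930506C21Rik at Mpc1) add uncertainty to those genes.

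**Figure D1:**
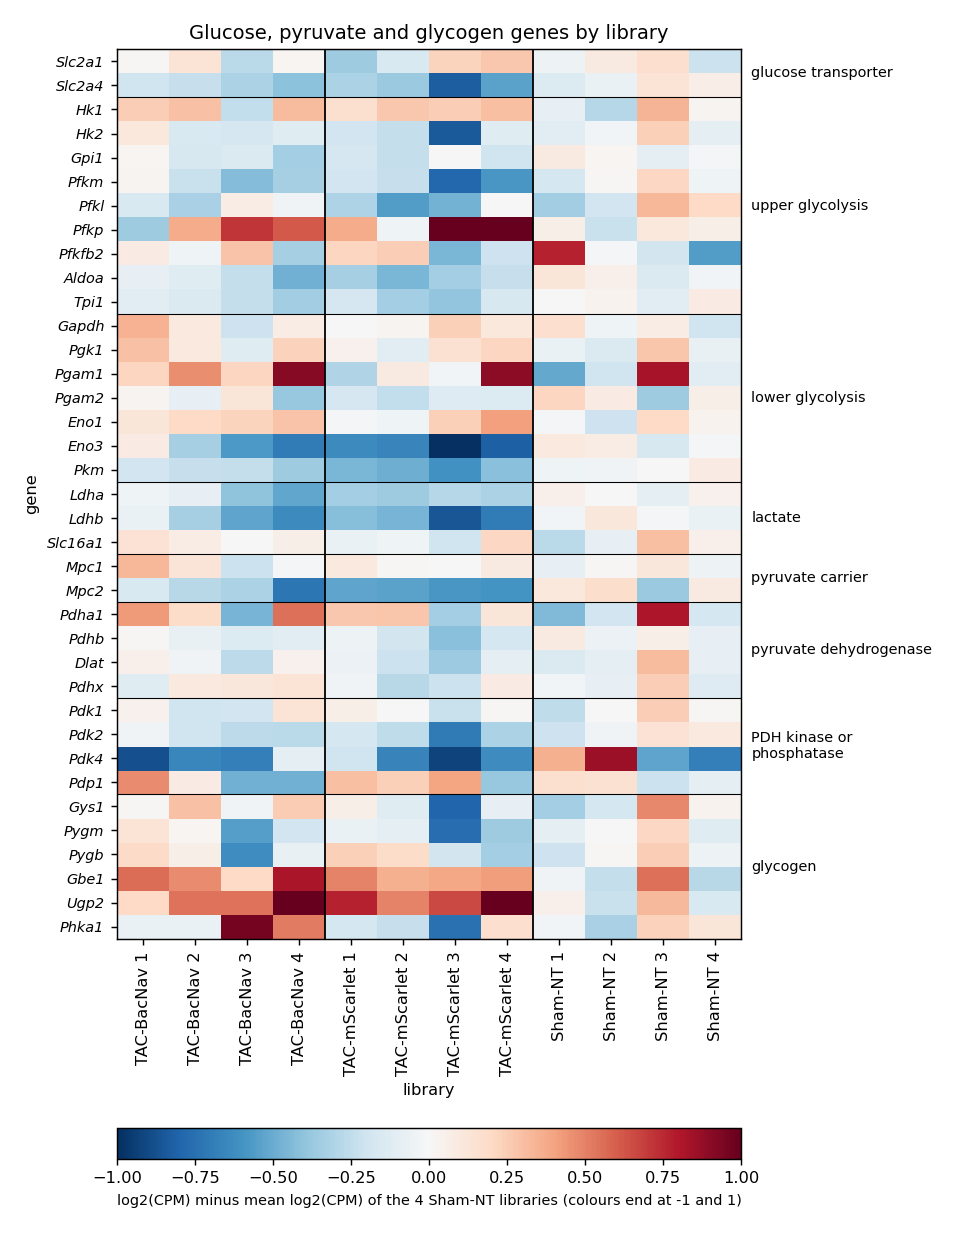
Log2 CPM of each of the 37 genes (rows, grouped by role) in each of the 12 libraries (columns), minus the gene's mean log2 CPM over the 4 Sham-NT libraries, with blue lower and red higher. Slc2a4, Eno3, Pkm, Ldhb and Mpc2 are blue in all 4 TAC-mScarlet libraries and Ugp2 is red in all 4.

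Promoter sequence is shown for the genes that the comparison of TAC-mScarlet with Sham-NT called and that have a RefSeq window, and for Ldha, the lactate dehydrogenase gene that it did not call. Pkm, Ugp2 and Ldha have 2 windows each, of which the one farther upstream is printed. Each window is the 250 bases before a RefSeq transcription start on GRCm38.p6, read 5′ to 3′ on the gene's strand. Capitals mark matches, on either strand, to 8 short motifs. ACGTG is the core bound by hypoxia-inducible factor, and CACGTG is an E-box, which contains ACGTG on both strands. AAGGTCA is the short and TNAAGGTCA the long motif of estrogen-related receptors. The core of MEF2, 10 letters with only A or T at the middle 4, was searched too. GGGCGG is the GC box, AGAACA is a glucocorticoid receptor half-site and TGTTTAC is the FOXO motif. The windows are Eno3 at chr11:70656926-70657175 (plus strand), Pkm at chr9:59656326-59656575 (plus strand), Ldhb at chr6:142507958-142508207 (minus strand), Mpc2 at chr1:165461010-165461259 (plus strand), Ugp2 at chr11:21371268-21371517 (minus strand) and Ldha at chr7:46845554-46845803 (plus strand).
Eno3: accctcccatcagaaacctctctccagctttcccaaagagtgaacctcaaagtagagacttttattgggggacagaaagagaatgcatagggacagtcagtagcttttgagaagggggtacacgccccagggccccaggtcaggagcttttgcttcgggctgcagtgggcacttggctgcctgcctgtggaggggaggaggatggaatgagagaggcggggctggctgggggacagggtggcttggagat
Pkm: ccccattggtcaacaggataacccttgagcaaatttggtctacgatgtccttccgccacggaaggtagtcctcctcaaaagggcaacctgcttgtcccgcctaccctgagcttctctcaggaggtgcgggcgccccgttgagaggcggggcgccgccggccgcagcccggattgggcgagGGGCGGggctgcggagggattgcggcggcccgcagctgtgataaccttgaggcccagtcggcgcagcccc
Ldhb: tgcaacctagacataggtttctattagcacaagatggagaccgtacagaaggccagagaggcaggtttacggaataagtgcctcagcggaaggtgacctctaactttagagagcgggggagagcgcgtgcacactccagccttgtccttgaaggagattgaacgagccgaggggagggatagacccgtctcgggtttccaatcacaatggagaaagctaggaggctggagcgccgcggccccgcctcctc
Mpc2: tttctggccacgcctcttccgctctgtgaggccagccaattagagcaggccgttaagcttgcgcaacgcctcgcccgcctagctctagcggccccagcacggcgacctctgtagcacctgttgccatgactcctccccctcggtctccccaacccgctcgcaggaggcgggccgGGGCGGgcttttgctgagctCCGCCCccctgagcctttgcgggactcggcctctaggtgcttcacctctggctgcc
Ugp2: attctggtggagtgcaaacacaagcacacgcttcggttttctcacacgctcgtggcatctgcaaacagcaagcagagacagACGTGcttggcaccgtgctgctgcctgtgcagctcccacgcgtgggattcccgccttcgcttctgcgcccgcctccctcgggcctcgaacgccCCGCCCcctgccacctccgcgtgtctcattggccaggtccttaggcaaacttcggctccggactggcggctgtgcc
Ldha: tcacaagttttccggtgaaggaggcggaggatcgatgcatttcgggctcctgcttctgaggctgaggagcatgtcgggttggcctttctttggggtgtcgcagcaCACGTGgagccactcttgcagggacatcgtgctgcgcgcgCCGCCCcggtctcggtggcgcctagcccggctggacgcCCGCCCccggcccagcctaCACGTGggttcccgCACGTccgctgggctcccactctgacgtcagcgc
The Eno3 and Ldhb windows held none of these motifs. GGGCGG stood at 70 bases before the start in the printed Pkm window, at 76 and 56 bases in Mpc2 and at 76 bases in Ugp2, which also held ACGTG at 169 bases. The printed Ldha window held the E-box at 145 and 48 bases, a further ACGTG at 34 bases and GGGCGG at 105 and 67 bases. Of the windows not printed, that of Pkm held ACGTG at 75 bases, that of Ugp2 GGGCGG at 222 and 154 bases, and that of Ldha none of the motifs. RefSeq windows were found for 35 of the 37 genes (51 windows), all but Slc2a4 and Pdp1. ACGTG stood in 35.3% of these windows against 16.6% of all 32851 promoter windows, CACGTG in 9.80% against 6.02%, and GGGCGG in 49.0% against 32.7%. AGAACA stood in 17.6% against 16.1% and AAGGTCA in 1.96% against 4.08%. The MEF2 core, TNAAGGTCA and TGTTTAC stood in 0 of the 51 windows, against 0.508%, 1.14% and 3.17% of all windows in that order. The member windows had a median GC content of 61.6% against 52.4% over all windows, and the part of base composition in these shares was not tested. A match is a run of letters and no evidence of binding.

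In TAC-mScarlet against Sham-NT, 5 of the 37 genes fell and 1 rose. Those that fell were Slc2a4, the insulin-responsive glucose transporter GLUT4, Eno3, the muscle enolase, Pkm, pyruvate kinase of muscle and other tissues, Ldhb, the heart-type lactate dehydrogenase subunit, and Mpc2, a subunit of the mitochondrial pyruvate carrier. Ugp2, which makes the UDP-glucose that glycogen synthase uses, rose. A gene was called where the quasi-likelihood test of edgeR (hereafter edgeR) gave a p below 0.05 after Benjamini-Hochberg adjustment over all 13910 genes. Of all genes 5.17% were called, 2.65% higher and 2.52% lower, against 16.2% of the 37 genes, 2.7% higher and 13.5% lower. The median log2 fold change of the 37 genes was -0.18, against 0.00444 over all genes, and 25 of 37 (67.6%) lay below 0, against 49.5% of all genes. The libraries of the groups did not overlap for 11 of the 37 genes (29.7%, against 13.1% of all genes), of which 10 were lower (27%, against 6.78%) and 1 higher (2.7%, against 6.33%).

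Of the 2 glucose transporter genes, Slc2a4 fell and Slc2a1 was not called in TAC-mScarlet against Sham-NT. Slc2a4 (chromosome 11, 69942539 to 69948188, GRCm38) had 346, 339, 319.5 and 299 CPM in TAC-BacNav, 319.7, 307, 224 and 274 CPM in TAC-mScarlet and 361, 380.1, 436 and 416 CPM in Sham-NT mice 1 to 4. All 4 libraries of each TAC group were below all 4 Sham-NT libraries, and TAC-mScarlet 3 was the lowest of the 12. The log2 fold change, given with its SE throughout, was -0.50 ± 0.13 in TAC-mScarlet against Sham-NT (edgeR, adjusted p = 0.0344) and 0.21 ± 0.13 in TAC-BacNav against TAC-mScarlet (edgeR, adjusted p = 0.9995). Slc2a1, the basal transporter GLUT1, had 15.9, 17.4, 13.1 and 16.0 CPM in TAC-BacNav, 12.3, 14.2, 18.4 and 19.0 CPM in TAC-mScarlet and 15.3, 16.8, 17.7 and 13.6 CPM in Sham-NT. All pairs of groups overlapped, with a log2 fold change of 0.011 ± 0.17 in TAC-mScarlet against Sham-NT (edgeR, adjusted p = 0.981).

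The upper steps, from hexokinase to triosephosphate isomerase, held 0 called genes of 9 in TAC-mScarlet against Sham-NT. Hk2, the muscle hexokinase, had 386, 323, 318 and 329 CPM in TAC-BacNav, 313, 303, 199.6 and 329 CPM in TAC-mScarlet and 331, 351, 423 and 335 CPM in Sham-NT. TAC-mScarlet 3 was far below the rest, and all TAC-mScarlet libraries were below all Sham-NT libraries, but the difference of -0.33 ± 0.15 did not pass (edgeR, adjusted p = 0.211). Hk1, the widely expressed hexokinase, had 119, 123, 84.4 and 125 CPM in TAC-BacNav, 112, 121, 119 and 124 CPM in TAC-mScarlet and 94.96, 82.4, 127 and 102 CPM in Sham-NT, with overlapping groups and a log2 fold change of 0.23 ± 0.14 (edgeR, adjusted p = 0.387).

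Pfkm, the muscle subunit of phosphofructokinase, the committed step of glycolysis, had 928, 781, 674 and 724 CPM in TAC-BacNav, 797, 779, 528 and 609 CPM in TAC-mScarlet and 808, 919, 1051 and 883 CPM in Sham-NT. TAC-mScarlet and Sham-NT libraries did not overlap, yet the log2 fold change of -0.43 ± 0.15 was not called (edgeR, adjusted p = 0.107). The platelet-type subunit gene Pfkp went the other way in value, at 45.8, 75.9, 95.9 and 89.7 CPM in TAC-BacNav, 75.6, 57.0, 119.8 and 131 CPM in TAC-mScarlet and 61.1, 50.2, 62.9 and 61.0 CPM in Sham-NT. TAC-mScarlet 3 and 4 were the highest of the 12 libraries, while TAC-mScarlet 2 lay within the Sham-NT range, and the log2 fold change of 0.70 ± 0.26 was not called (edgeR, adjusted p = 0.124). The liver-type subunit gene Pfkl had 92.1, 81.7, 108 and 99.9 CPM in TAC-BacNav, 82.3, 69.4, 73.7 and 102 CPM in TAC-mScarlet and 80.3, 89.6, 129 and 117 CPM in Sham-NT, with a log2 fold change of -0.35 ± 0.16 (edgeR, adjusted p = 0.211). The groups of Pfkl overlapped, and its values followed the Fos sides, as given further on.

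The other upper genes, also not called, were Gpi1, glucose phosphate isomerase, with a log2 fold change of -0.15 ± 0.11 in TAC-mScarlet against Sham-NT, Pfkfb2, the heart form of the enzyme that sets the activator level of phosphofructokinase, with -0.10 ± 0.24, Aldoa, aldolase A, with -0.34 ± 0.12, and Tpi1, triosephosphate isomerase, with -0.26 ± 0.11. Their levels ran over all 12 libraries from 452 to 611 CPM for Gpi1, from 59.3 to 148 CPM for Pfkfb2, from 2289 to 3472 CPM for Aldoa and from 717 to 995 CPM for Tpi1. Aldoa and Tpi1 were lower in all TAC-mScarlet libraries than in all Sham-NT libraries, and Gpi1 and Pfkfb2 overlapped.

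In lower glycolysis 2 of 7 genes fell in TAC-mScarlet against Sham-NT. Eno3 (chromosome 11, 70657202 to 70662513), which turns phosphoglycerate into phosphoenolpyruvate in muscle, had 2022, 1511, 1279 and 1173 CPM in TAC-BacNav, 1226, 1209, 892 and 1080.5 CPM in TAC-mScarlet and 2036, 2010.2, 1706 and 1892 CPM in Sham-NT. Every TAC-mScarlet library was below every Sham-NT library, and TAC-BacNav spanned both, with its mouse 1 at the Sham-NT level and its mouse 4 at the TAC-mScarlet level. The log2 fold change was -0.79 ± 0.17 with a 95% interval of -1.15 to -0.44 (edgeR, adjusted p = 0.0230). Eno1, the widely expressed enolase, had 116, 123, 125 and 131 CPM in TAC-BacNav, 106, 104, 126 and 142 CPM in TAC-mScarlet and 106, 92.5, 123 and 109.6 CPM in Sham-NT, with overlapping groups and 0.15 ± 0.12 (edgeR, adjusted p = 0.509).

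Pkm (chromosome 9, 59656368 to 59679375), which makes pyruvate and ATP at the last step of glycolysis, had 983, 956, 953 and 876 CPM in TAC-BacNav, 816, 800.3, 738 and 841 CPM in TAC-mScarlet and 1088, 1096, 1118 and 1186 CPM in Sham-NT. The 3 groups did not overlap at all: every TAC-mScarlet library was lowest, TAC-BacNav came next and Sham-NT was highest. The log2 fold change in TAC-mScarlet against Sham-NT was -0.49 ± 0.11 (edgeR, adjusted p = 0.0241). Pkm had the smallest spread within groups of all 37 genes, with a pooled SD of 0.070 on the log2 scale. Counts per gene do not separate its M1 and M2 splice forms, and 767 bases of its exons lie in Gm49759 on the same strand.

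The other 5 genes of lower glycolysis were not called. Pgam2, the muscle phosphoglycerate mutase, had 919.6, 856, 983 and 693 CPM in TAC-BacNav, 802, 762, 828 and 821 CPM in TAC-mScarlet and 1046, 957, 707 and 941 CPM in Sham-NT, with a log2 fold change of -0.18 ± 0.14. Its widely expressed counterpart Pgam1 had 38.9, 46.3, 39.1 and 63.1 CPM in TAC-BacNav, 27.4, 35.8, 33.1 and 62.4 CPM in TAC-mScarlet and 23.6, 29.3, 59.7 and 31.1 CPM in Sham-NT, with 0.13 ± 0.31. Both overlapped between groups, and Pgam1 was high in TAC-BacNav 4, TAC-mScarlet 4 and Sham-NT 3 alike. Gapdh (log2 fold change 0.090 ± 0.13) and Pgk1 (0.072 ± 0.13), whose enzymes form and use the first high-energy phosphate of this stage, ran from 159 to 234 CPM and from 323 to 436 CPM over the 12 libraries, with all groups overlapping.

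Of 3 genes of lactate metabolism Ldhb fell in TAC-mScarlet against Sham-NT. Ldhb (chromosome 6, 142490249 to 142507957) had 2037, 1699, 1480.2 and 1371 CPM in TAC-BacNav, 1588, 1544, 1176 and 1314 CPM in TAC-mScarlet and 2095, 2302, 2103 and 2042 CPM in Sham-NT. All libraries of both TAC groups were below all Sham-NT libraries, with TAC-mScarlet 3 the lowest, and the log2 fold change was -0.60 ± 0.14 with a 95% interval of -0.91 to -0.30 (edgeR, adjusted p = 0.0302). Ldha, the other subunit, which favours lactate formation, had 854, 835, 667 and 615 CPM in TAC-BacNav, 696, 689, 725 and 708 CPM in TAC-mScarlet and 914, 879, 829.4 and 909 CPM in Sham-NT. Its TAC-mScarlet libraries were all below its Sham-NT libraries, TAC-BacNav spanned a wider range than either, and -0.33 ± 0.12 was not called (edgeR, adjusted p = 0.132). Slc16a1, the lactate and pyruvate transporter MCT1, ran from 306 to 454 CPM with a log2 fold change of -0.032 ± 0.13.

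The subunits of the mitochondrial pyruvate carrier, which work as a pair, gave different values. Mpc2 (chromosome 1, 165460637 to 165481214) had 718, 657, 641 and 483 CPM in TAC-BacNav, 553, 550.3, 532 and 528 CPM in TAC-mScarlet and 858, 901, 615 and 849 CPM in Sham-NT. TAC-mScarlet libraries were tightly grouped and all below Sham-NT, whose mouse 3 was the lowest of its group, and the log2 fold change was -0.58 ± 0.14 (edgeR, adjusted p = 0.0344). Mpc1 had 151, 131, 104 and 119 CPM in TAC-BacNav, 128, 121, 120.1 and 128 CPM in TAC-mScarlet and 114, 121, 130.1 and 116 CPM in Sham-NT, with overlapping groups, 0.049 ± 0.12 and a 95% interval of -0.20 to 0.30.

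None of the 4 genes of the pyruvate dehydrogenase complex was called, and their log2 fold changes in TAC-mScarlet against Sham-NT ran from -0.20 to 0.014. Pdha1, the regulated alpha subunit, had 726, 614, 393 and 793 CPM in TAC-BacNav, 654, 654, 427 and 589 CPM in TAC-mScarlet and 399, 473, 949 and 478 CPM in Sham-NT. It varied more within groups than between them, with Sham-NT 3 far above the other Sham-NT mice. The beta subunit gene Pdhb ran from 765 to 1086 CPM, the acetyltransferase gene Dlat from 412 to 660.1 CPM and the binding protein gene Pdhx from 154 to 222 CPM over the 12 libraries.

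Regulators of the complex, 3 kinase genes that switch it off and the phosphatase gene Pdp1 that switches it on, gave 0 called genes of 4. Pdk4, the kinase induced by fasting and fatty acids, had 350.0, 408, 399 and 599 CPM in TAC-BacNav, 559, 405, 338 and 415 CPM in TAC-mScarlet and 822, 1160.3, 445 and 399.9 CPM in Sham-NT. Sham-NT 1 and 2 stood above all other libraries, while Sham-NT 3 and 4 lay inside the range of the TAC groups. The log2 fold change of -0.72 ± 0.30 in TAC-mScarlet against Sham-NT was not called over all libraries (edgeR, adjusted p = 0.182). Within the high Fos side it was -1.19 (edgeR, adjusted p = 0.0185) and within the low side -0.046, where 1 TAC-mScarlet library is assumed to vary like the others (edgeR, adjusted p = 0.990). Adjusted p over all its alternatives ran from 0.0185 to 0.990. Pdk2, a kinase of the complex in many tissues, the heart included, had 418, 373, 358 and 354 CPM in TAC-BacNav, 379, 358, 262 and 344 CPM in TAC-mScarlet and 371, 416, 472 and 459 CPM in Sham-NT, overlapping in all pairs of groups, with -0.36 ± 0.13 (edgeR, adjusted p = 0.123). Pdk1 ran from 200.4 to 283 CPM with a log2 fold change of -0.046 ± 0.13, and Pdp1 from 37.1 to 71.8 CPM with 0.16 ± 0.21.

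Among 6 glycogen genes Ugp2 rose in TAC-mScarlet against Sham-NT. Ugp2 (chromosome 11, 21321138 to 21371201) had 565, 716, 716 and 1111 CPM in TAC-BacNav, 839.5, 692, 777 and 1025 CPM in TAC-mScarlet and 509, 420.5, 615 and 443 CPM in Sham-NT. All TAC-mScarlet libraries were above all Sham-NT libraries, and mouse 4 was the highest in both TAC groups. The log2 fold change was 0.75 ± 0.19 with a 95% interval of 0.33 to 1.16 (edgeR, adjusted p = 0.0381). Gbe1, the branching enzyme, had 59.3, 56.0, 46.3 and 70.9 CPM in TAC-BacNav, 56.9, 51.6, 52.6 and 53.9 CPM in TAC-mScarlet and 39.3, 34.2, 59.1 and 33.2 CPM in Sham-NT, and only the high Sham-NT 3 overlapped the TAC-mScarlet values (0.37 ± 0.17, edgeR, adjusted p = 0.218).

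Gys1, the muscle glycogen synthase, had 85.8, 105, 83.0 and 102 CPM in TAC-BacNav, 88.9, 78.1, 49.3 and 80.5 CPM in TAC-mScarlet and 67.2, 75.5, 119 and 87.3 CPM in Sham-NT. TAC-mScarlet 3 was the lowest and Sham-NT 3 the highest, and the log2 fold change of -0.24 ± 0.19 was not called (edgeR, adjusted p = 0.504). Pygm, the muscle glycogen phosphorylase, had 1118, 1029, 693 and 890.3 CPM in TAC-BacNav, 969, 955, 599 and 792 CPM in TAC-mScarlet and 955, 1015, 1174 and 932 CPM in Sham-NT, with TAC-mScarlet 3 and TAC-BacNav 3 lowest. Pygb, the brain form, had 758, 691, 432 and 631 CPM in TAC-BacNav, 786, 755, 587 and 527 CPM in TAC-mScarlet and 577, 669, 788 and 643 CPM in Sham-NT. Groups overlapped for both, at -0.30 ± 0.17 for Pygm and -0.012 ± 0.18 for Pygb. Phka1, the muscle regulatory subunit of the kinase that activates phosphorylase, had 66.0, 66.1, 135 and 99.5 CPM in TAC-BacNav, 61.4, 59.2, 41.4 and 77.9 CPM in TAC-mScarlet and 68.2, 55.2, 81.4 and 75.3 CPM in Sham-NT, with TAC-BacNav 3 and 4 highest and TAC-mScarlet 3 lowest.

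**Figure D2:**
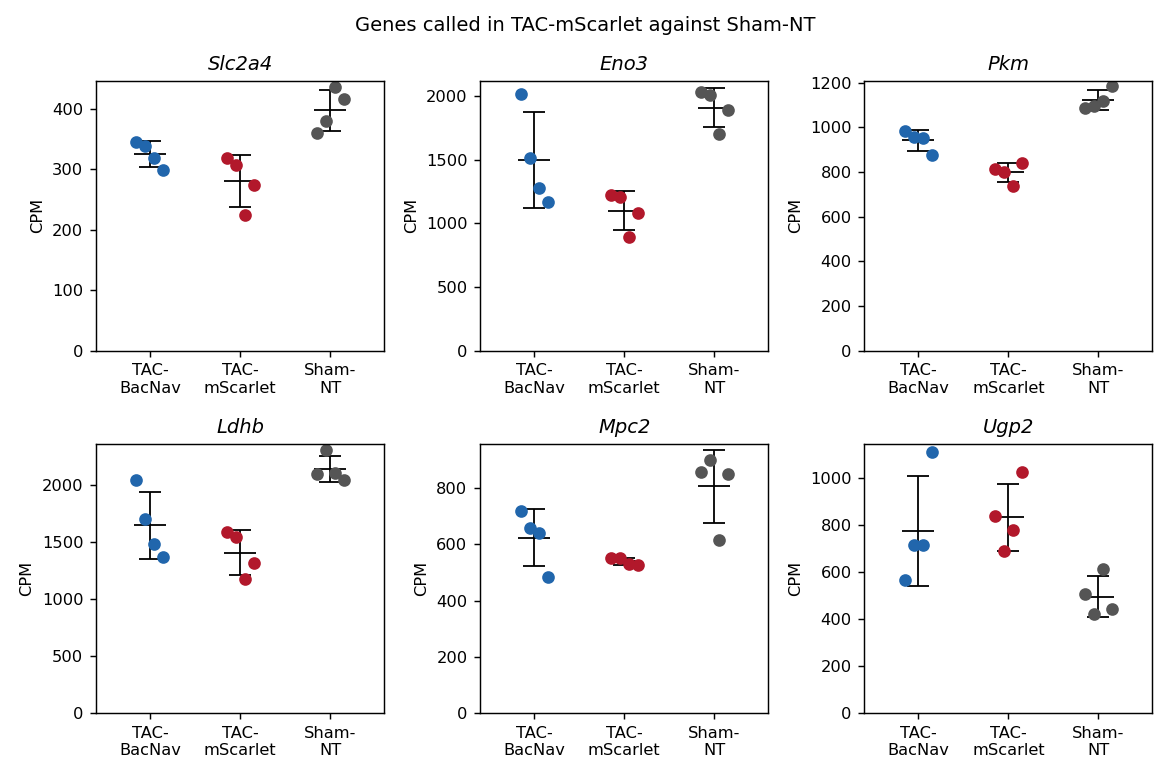
CPM of the 6 genes called in TAC-mScarlet against Sham-NT, by group (points are mice, bars the mean and SD of 4 mice, axes start at 0). Pkm is the only gene shown whose 3 groups do not overlap in any pair, at 876 to 983 CPM in TAC-BacNav, 738 to 841 CPM in TAC-mScarlet and 1088 to 1186 CPM in Sham-NT.

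The calls depended on single libraries. The number of called genes among the 37 was 0 without TAC-mScarlet 3, without Sham-NT 2 or without Sham-NT 4, and within the low Fos side, which held 1 TAC-mScarlet library. It was 1 without TAC-mScarlet 4 and 2 without Sham-NT 1, while over all genes 97 calls were made without TAC-mScarlet 3, 14 without Sham-NT 2, 20 without Sham-NT 4, 78 within the low Fos side, 224 without TAC-mScarlet 4 and 257 without Sham-NT 1, against 719 with all libraries. All 6 genes kept their sign in the 20 alternatives run: the log2 fold changes spanned -0.87 to -0.67 for Eno3, -0.68 to -0.48 for Ldhb, -0.69 to -0.44 for Mpc2, -0.52 to -0.36 for Pkm, -0.66 to -0.38 for Slc2a4 and 0.63 to 0.94 for Ugp2. The median of the 37 genes was -0.088 without TAC-mScarlet 3. With library size scaling, the median over all genes was 0.131 in place of 0.00444 (698 higher and 205 lower calls in place of 369 and 350). The median of the 37 genes was then -0.052, and Slc2a4 and Mpc2 were not called.

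Markers of some cell types also differed between TAC-mScarlet and Sham-NT. Ventricular cardiomyocyte markers fell for 3 of 10 genes (Tnni3, Tnnt2 and Myh6) in TAC-mScarlet against Sham-NT, with a median log2 fold change of -0.47. Over all genes 2.65% rose and 2.52% fell in this comparison, with a median of 0.00444. Summed levels of 8 fibroblast markers ran from 1673 to 2257 CPM in TAC-BacNav, from 1888 to 4626 CPM in TAC-mScarlet and from 1251 to 1529 CPM in Sham-NT, and 3 of the 8 rose. Those of 7 macrophage markers ran from 692 to 823 CPM in TAC-BacNav, from 698 to 1137 CPM in TAC-mScarlet and from 483 to 629 CPM in Sham-NT, and 3 of the 7 rose. Activated fibroblast markers (Postn, Meox1 and Cthrc1, the last at 0 in some libraries) summed to 76.5 to 338 CPM in TAC-BacNav, 258 to 2219 CPM in TAC-mScarlet and 54.3 to 69.4 CPM in Sham-NT. Of 7 endothelial markers 0 were called, against 5.17% of all genes. TAC-mScarlet 3, lowest for Slc2a4, Hk2, Pfkm, Eno3, Ldhb and Gys1, was also lowest for the cardiomyocyte sum and highest for the fibroblast and macrophage sums. Their part in the glucose genes was not tested.

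Between TAC-BacNav and TAC-mScarlet, 0 of the 37 genes were called by DESeq2, against 5 of 14954 genes, or by limma-voom, against 0 of 13910. By edgeR 0 were called too, as were 0 of all genes (0%). At an unadjusted p below 0.05, Eno3, Pkm and Phka1 were higher in TAC-BacNav, 3 genes or 8.11%, against 3.36% of all genes (1.38% higher and 1.98% lower). Values were 0.44 ± 0.17 for Eno3, 0.24 ± 0.11 for Pkm and 0.61 ± 0.23 for Phka1, and the adjusted p (edgeR) was 0.9995 for each of them. Pkm was the only gene of the 37 whose libraries did not overlap (2.7%, against 1.7% of all genes), and it was all higher in TAC-BacNav, as were 0.762% of all genes. The 37 genes had a median of 0.12, against 0.00359 over all genes, and 28 of 37 (75.7%) lay above 0 and 9 below it, against 50.8% of all genes above and 49.2% below. Within the low Fos side, with 2 TAC-BacNav libraries and 1 TAC-mScarlet library, the median was -0.0047, against 0.014 over all genes. Within the high side it was 0.19, against -0.018 over all genes.

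For the 6 genes named above, TAC-BacNav against TAC-mScarlet gave 0.21 ± 0.13 for Slc2a4, 0.23 ± 0.14 for Ldhb, 0.21 ± 0.14 for Mpc2 and -0.10 ± 0.19 for Ugp2, beside the values of Eno3 and Pkm. The 95% intervals were -0.053 to 0.48 for Slc2a4, -0.077 to 0.53 for Ldhb, -0.098 to 0.51 for Mpc2, -0.51 to 0.31 for Ugp2, 0.090 to 0.79 for Eno3 and 0.015 to 0.46 for Pkm. The same TAC-mScarlet libraries enter this comparison and the one with Sham-NT, so opposite signs in the 2 comparisons are not independent. For genes such as Gapdh, at -0.0031 ± 0.13, the interval of -0.27 to 0.27 leaves differences in either direction possible with 4 mice a group. These intervals are not adjusted for the number of genes tested. Those of Eno3 and Pkm lay above 0, yet neither gene was called.

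Between TAC-BacNav and Sham-NT, 0 of the 37 genes were called by DESeq2, against 38 of 14084 genes, or by limma-voom, against 2 of 13910. By edgeR 0 were called too, against 0.0144% of all genes. Before adjustment 8 genes (21.6%, against 11.1% of all genes) had a p below 0.05. Gbe1 and Ugp2 were the 2 higher ones (5.41%, against 5.79% of all genes), and Slc2a4, Eno3, Pkm, Ldhb, Mpc2 and Pdk4 the 6 lower ones (16.2%, against 5.31%). Ugp2 gave 0.65 ± 0.19 and Gbe1 0.48 ± 0.17, and the adjusted p of 0.367 (edgeR) was the smallest among the 37 genes. Ldhb gave -0.37 ± 0.14, Mpc2 -0.37 ± 0.14, Eno3 -0.35 ± 0.17, Slc2a4 -0.29 ± 0.13 and Pkm -0.25 ± 0.11. Libraries did not overlap for 3 genes (8.11%, against 5.45% of all genes). These were Slc2a4, Pkm and Ldhb, all lower in TAC-BacNav (2.37% of all genes were all lower), and 0 genes were all higher, against 3.08% of all genes. Below 0 lay 23 of 37 genes (62.2%), against 48.9% of all genes. The median over the 37 genes was -0.070 with TMM scaling and all libraries, against 0.00788 over all genes. With library size scaling it was 0.027, against 0.105 over all genes. Within the high Fos side it was 0.055, against -0.0035 over all genes, and within the low side -0.18, against -0.0040.

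**Figure D3:**
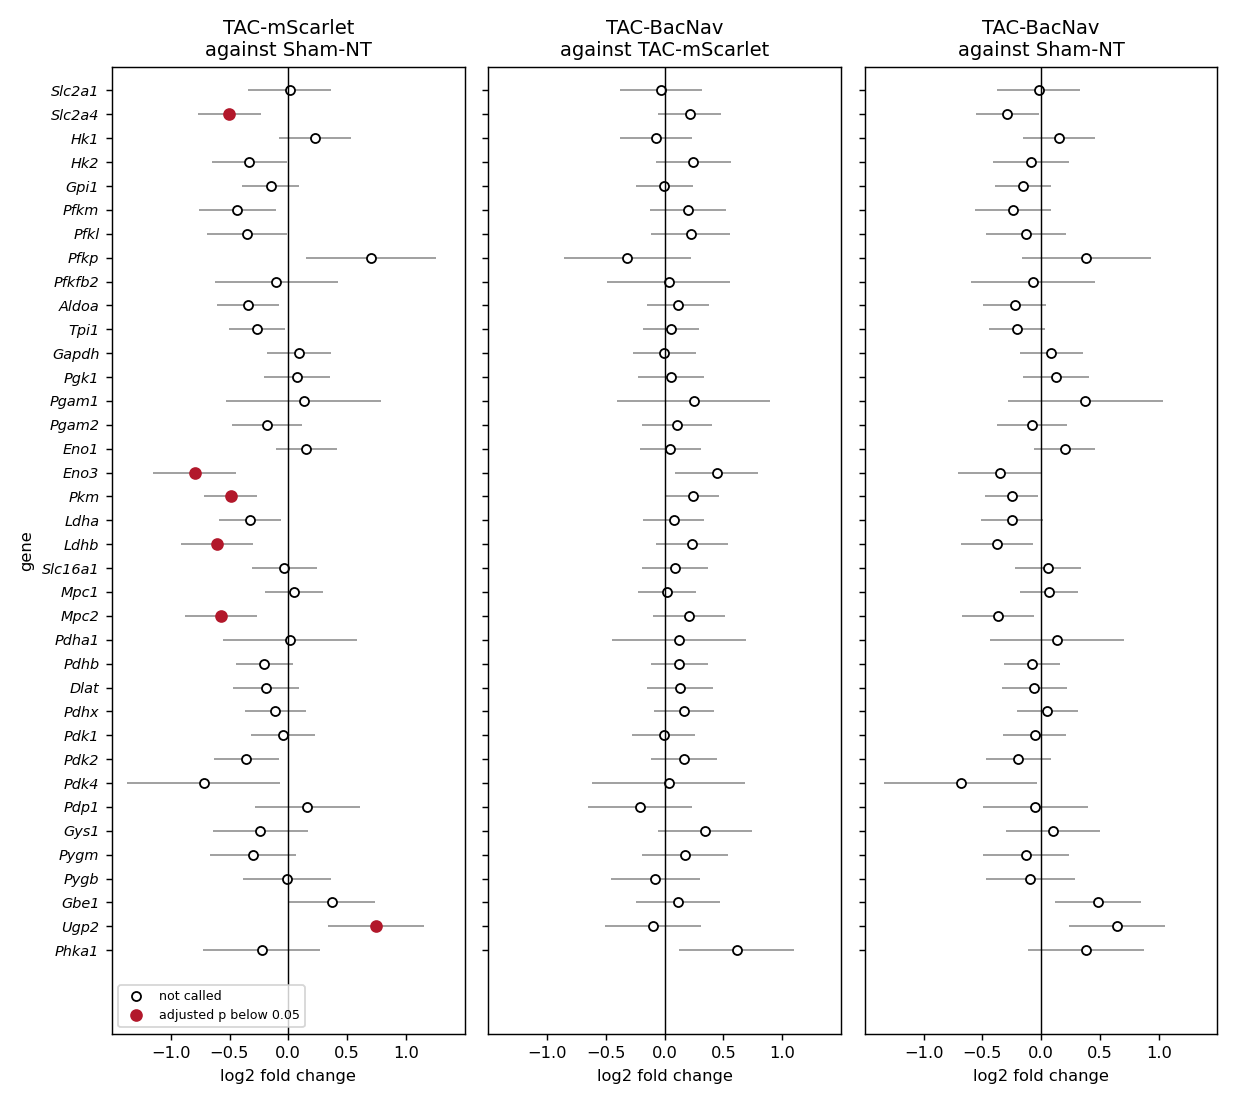
Log2 fold changes of the 37 genes (points) with 95% intervals from the same fit (lines) in the 3 comparisons, red where the adjusted p was below 0.05. The 6 red points all lie in TAC-mScarlet against Sham-NT, and no gene is called in the other 2 panels.

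Isozyme balance was read as the log2 ratio of 2 genes within a library, which does not depend on scaling between libraries. For 9 pairs and 3 comparisons, 27 exact two-sided permutation tests were run over libraries, whose smallest possible p with 4 against 4 mice is 0.0286, and 0 passed after Benjamini-Hochberg adjustment (smallest adjusted p 0.331 by the exact permutation test). As mean ± SD of 4 mice on the log2 scale, Eno1 over Eno3 averaged -3.56 ± 0.41 in TAC-BacNav, -3.204 ± 0.38 in TAC-mScarlet and -4.15 ± 0.27 in Sham-NT. TAC-mScarlet and Sham-NT did not overlap, at a difference of 0.95 and an exact permutation p of 0.0286. Hk1 over Hk2 averaged -1.598 ± 0.25 in TAC-BacNav, -1.24 ± 0.34 in TAC-mScarlet and -1.83 ± 0.18 in Sham-NT, also with no overlap between TAC-mScarlet and Sham-NT, at a difference of 0.59 and an exact permutation p of 0.0286.

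The remaining pairs overlapped in all 3 comparisons. Pfkp over Pfkm averaged -3.38 ± 0.68 in TAC-BacNav, -2.88 ± 0.83 in TAC-mScarlet and -3.96 ± 0.21 in Sham-NT, a difference of 1.08 between TAC-mScarlet and Sham-NT (exact permutation p = 0.0571). Ldha over Ldhb averaged -1.15 ± 0.094 in TAC-BacNav, -0.99 ± 0.23 in TAC-mScarlet and -1.27 ± 0.11 in Sham-NT, a difference of 0.29 between TAC-mScarlet and Sham-NT (exact permutation p = 0.0571). Slc2a1 over Slc2a4 gave 0.51, Pygb over Pygm 0.30, Pgam1 over Pgam2 0.33, Pfkl over Pfkm 0.11 and Pdk4 over Pdk2 -0.24 in that comparison. Per kilobase the muscle enolase still made up 95.6 to 97.3% of Eno1 and Eno3 in TAC-mScarlet and 97.7 to 98.5% in Sham-NT, with 96.5 to 98.2% in TAC-BacNav. These shares rest on annotated exon lengths of 5379 bases for Eno1 and 1739 bases for Eno3.

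**Figure D4:**
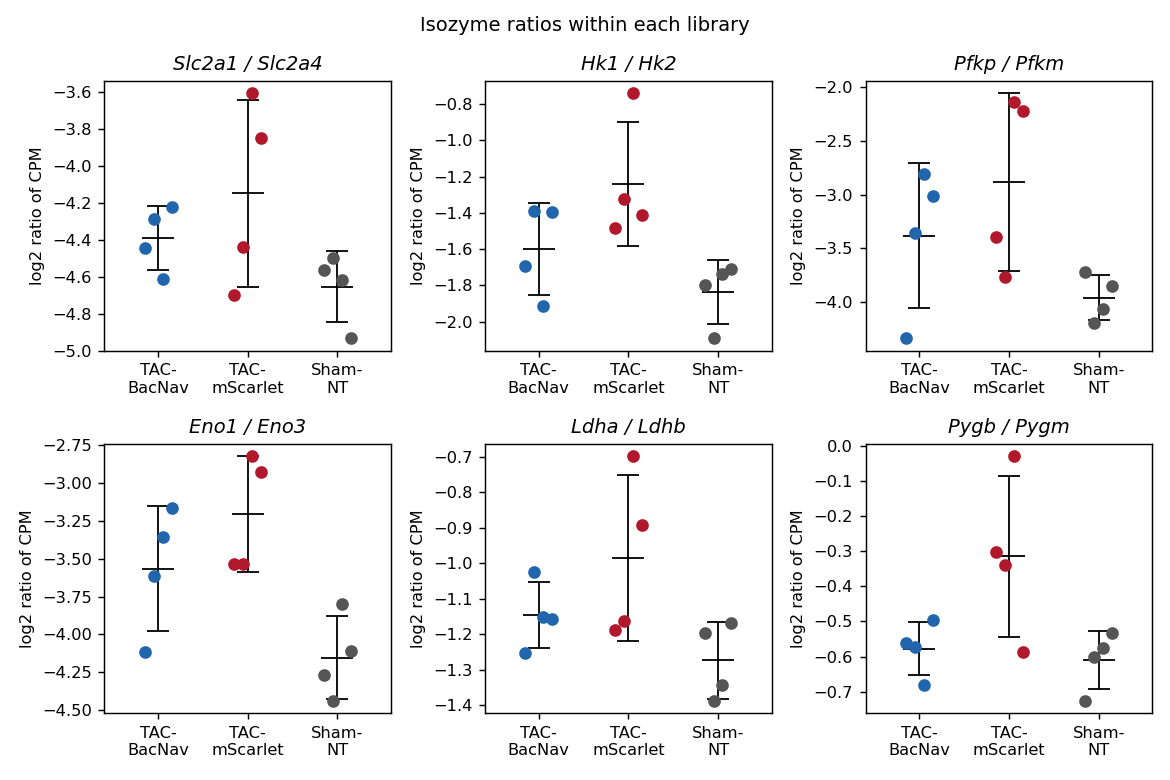
Log2 ratio of CPM of the first to the second gene in each library for 6 of the 9 isozyme pairs, by group (points are mice, bars the mean and SD of 4 mice). The Hk1 over Hk2 and Eno1 over Eno3 ratios of all TAC-mScarlet libraries lie above those of all Sham-NT libraries.

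Spread within groups was uneven among the 37 genes. Pooled SDs within groups on the log2 scale were largest for Pdk4 (0.50), Pgam1 (0.48), Pdha1 (0.45) and Pfkp (0.44), and smallest for Pkm, Tpi1 (0.10) and Pdhb (0.11). Between the low and the high Fos side, 3 of the 37 genes did not overlap, against 2.62% of all genes, and these were named after their values were seen. Pfkl ran from 99.9 to 129 CPM in the 5 low libraries and from 69.4 to 92.1 CPM in the 7 high ones, and Phka1 from 75.3 to 135 CPM against 41.4 to 68.2 CPM. Pdp1 was opposite, at 37.1 to 48.2 CPM in the low and 54.8 to 71.8 CPM in the high libraries. The low side held 2 TAC-BacNav libraries, 1 TAC-mScarlet library and 2 Sham-NT libraries, and its cause was not tested.

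**Figure D5:**
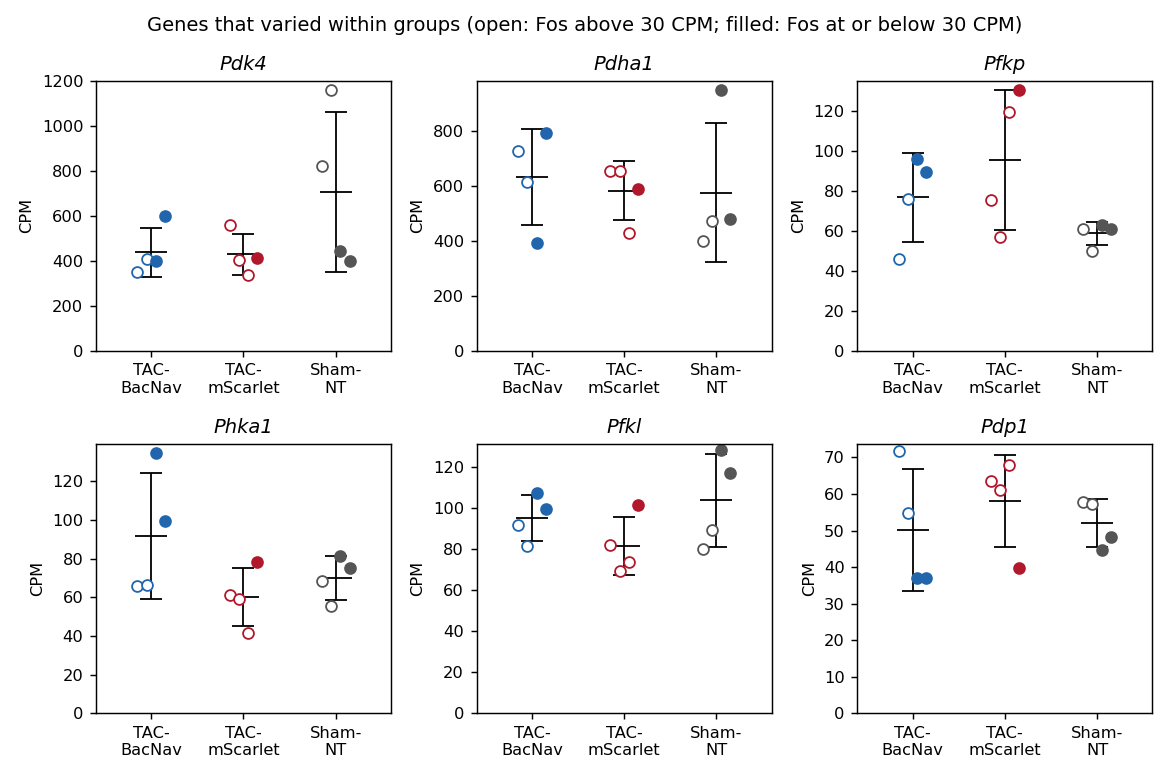
CPM of 6 genes that varied within groups (points are mice, bars the mean and SD of 4 mice, axes start at 0), with open points for Fos above 30 CPM and filled points for Fos at or below it. Phka1, Pfkl and Pdp1 are the genes whose Fos sides did not overlap. Pgam1 and Pfkfb2, of wider spread within groups than those genes, are not shown. Filled points lie above all open points for Phka1 and Pfkl and below all open points for Pdp1, whereas the open Sham-NT points are highest for Pdk4.

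Other genes of the pathway, from lists chosen with earlier results known, gave these counts. In TAC-mScarlet against Sham-NT, where 2.65% of all genes rose and 2.52% fell, 1 of 20 other uptake and glycolysis genes fell, namely Pfkfb1, a further form of the enzyme that sets the activator of phosphofructokinase (-2.45 ± 0.37, edgeR, adjusted p = 0.00986), whose exons overlap Apex2 on the opposite strand. Of 19 other lactate and pyruvate genes, 2 fell, the transaminase genes Gpt (-0.95 ± 0.21, edgeR, adjusted p = 0.0251), which links pyruvate with alanine, and Got1 (-0.55 ± 0.13, edgeR, adjusted p = 0.0328), which links oxaloacetate with aspartate. The median of these 19 was -0.41, against 0.00444 over all genes, with 11 lower and 2 higher at an unadjusted p below 0.05, where 11.2% of all genes were lower and 11% higher. Of 20 other glycogen genes, 1 fell (2.52% of all genes fell), Phkg1, the muscle catalytic subunit of phosphorylase kinase (-1.53 ± 0.40, edgeR, adjusted p = 0.0432), whose exons overlap Sumf2 on the opposite strand.

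Side branches of glucose use gave no call: 0 of 9 pentose phosphate genes, 0 of 7 hexosamine genes and 0 of 4 polyol and fructose genes passed by edgeR, with 1 lower gene in each list at an unadjusted p below 0.05, where 11.2% of all genes were lower. Among 21 upstream signal genes, 3 were higher and 5 lower at an unadjusted p below 0.05 (edgeR), against 11% and 11.2% of all genes. Their median log2 fold change was -0.070, against 0.00444 over all genes. Called were 1 higher and 1 lower gene, where 2.65% of all genes rose and 2.52% fell. Prkab2, a regulatory subunit of the energy sensor AMPK, rose (0.68 ± 0.14, edgeR, adjusted p = 0.0229). Klf15, a transcription factor known to activate Slc2a4, fell (-0.94 ± 0.21, edgeR, adjusted p = 0.0251). By the same test 0 genes of these 7 lists were called in TAC-BacNav against either TAC-mScarlet or Sham-NT. Between TAC-BacNav and TAC-mScarlet the median of the 19 lactate and pyruvate genes was 0.18, against 0.00359 over all genes, and Gpt gave 0.63 ± 0.21 and Got1 0.34 ± 0.13 (SE), neither called.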

How the data were processed

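Total RNA of snap-frozen ventricles was sequenced as paired-end libraries, per the labels' protocols, and the deposited tables hold raw counts per gene. The submitters' processing notes name HISAT2, featureCounts and GRCh38, a human build, for these mouse samples, without versions. Gene IDs matched a GRCm38 annotation, which gave coordinates and exon lengths, and no source used here gives the strand setting. In R 4.3.3, TMM scaling and 1 quasi-likelihood model of edgeR 4.0.16 over the 12 libraries were used after a filter on low counts removed 1047 of 14957 genes. P-values were adjusted over the 13910 genes left. The SEs and intervals of log2 fold changes came from the quasi-likelihood model, so they are not the spread of a single gene alone. For Pkm in TAC-mScarlet against Sham-NT the SE was 0.106, beside a pooled SD within groups of 0.070. DESeq2 1.42.0, limma 3.58.1 (voom), other scalings, single libraries left out and the sides of Fos were alternatives. The 37 genes, the other lists and the alternatives were chosen with earlier results of these data known. Values per library are given for genes called in any comparison, genes of isozyme pairs and Slc2a4, Hk2, Pfkm, Pdk4, Mpc1, Pdha1, Gys1 and Pygm, plus Gbe1 and Phka1, chosen after their values were seen. Of the other lists up to 4 called genes per direction were named.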

Additional observations from a re-analysis of the deposited data

Results flagged for a closer look

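In 6 of 111 groups of 4 mice, over the 37 genes and 3 groups, 1 library stood apart from the other 3 by Dixon's criterion, whose critical value is 0.829, and chance alone gives about 1 in 20. Hk1 had 84.4 CPM in TAC-BacNav 3, against 119 to 125 CPM in the other TAC-BacNav mice. Hk2 had 386 CPM in TAC-BacNav 1, against 318 to 329 CPM in the others of that group. Pfkp had 50.2 CPM in Sham-NT 2, against 61.0 to 62.9 CPM in the other Sham-NT mice. Sham-NT 3 stood apart for 3 genes: Pgk1 had 432 CPM there against 323 to 341 CPM in the other Sham-NT mice, Pdha1 949 CPM against 399 to 478 CPM, and Dlat 660.1 CPM against 479 to 502 CPM.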

How the results depend on the processing

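The count of 6 called genes in TAC-mScarlet against Sham-NT ran from 0 to 7 when each library of these groups was left out in turn. Fits without a TAC-BacNav library were not counted here. The count was 4 with library size scaling, 5 with only the 2 groups fitted, 6 with size factors of DESeq2, with limma-voom, with no filter or with a length offset, 7 with the Fos side as a factor or within the high side, and 8 with DESeq2. Calls over all genes numbered 719 in the main fit, 903 with library size scaling and 655 with only the 2 groups fitted. They numbered 727 with size factors of DESeq2, 467 with limma-voom, 727 with no filter and 848 with a length offset. With the Fos side as a factor they numbered 1459, within the high side 704, and with DESeq2 1370 of 14954 genes. In TAC-BacNav against TAC-mScarlet and TAC-BacNav against Sham-NT the count was 0 in each alternative run. Over all genes these 2 comparisons gave, in that order, 2 and 4 calls within the high Fos side and 5 and 38 with DESeq2. They gave 0 and 8 with the Fos side as a factor, 0 and 15 without TAC-BacNav 1 and 0 and 2 with limma-voom. With mouse number as a replicate block the counts of called glucose genes were 6, 0 and 0, and 6, 0 and 0 with a length offset added. Over all genes the block alone gave 889, 6 and 12 calls, against 719, 0 and 2 without it. Correlations of deviations from group means ran from -0.292 to 0.379 between same-numbered mice, over 0.1 in 8 of 12 pairs, and from -0.374 to 0.512 between other mice, over 0.1 in 11 of 36. A mouse correlated best with its own number in 7 of 24 cases. The numbers were not taken as pairs because not every same-numbered pair was over 0.1. These correlations do not settle whether same-numbered mice belong together. The Fos sides partly followed the numbers: in every group mice 1 and 2 were on the high side and mouse 4 on the low side. Mouse 3 was on the high side in TAC-mScarlet and on the low side in TAC-BacNav and Sham-NT. Calls gained were Pfkp (Fos side as a factor, and without TAC-mScarlet 2), Aldoa and Ldha (DESeq2), Pdk4 (high Fos side) and Gbe1 (high Fos side, and without Sham-NT 3). For single genes, 2120 of the results under alternatives kept their side of the threshold or lay within the spread, 40 lost a call, 7 gained one, 53 uncalled values moved by more than the spread, and no called value changed sign. Of the isozyme ratios, 0 passed with 0.5 added to counts. With 4 mice a group the SE of a log2 fold change was 0.11 to 0.31, which limits what was detectable, and no cause of a lost call was tested.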
